A study of Mus musculus with 22 samples.

Results

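The genes that encode the ATRX-DAXX histone chaperone and the writers and readers of H3K9 methylation were examined in peak lists of mouse ES cells after knockdown of TERRA, the telomeric repeat-containing RNA. The 10 members were listed by name (Atrx, Daxx, Setdb1, Trim28, Suv39h1, Suv39h2, Ehmt1, Ehmt2, Cbx5 and Cbx1), without use of any measured value, from the 26180 genes with a curated RefSeq transcript. All groups were ES cells of 1 female line of CAST/Ei x 129/Sv/Jae background grown with serum and LIF. They had been taken off their feeder cells and received LNA gapmers, antisense oligonucleotides that lead to cleavage of the RNA they pair with. TERRA KD cells received the anti-sense TERRA gapmer and scramble KD cells the scramble gapmer, and both were collected 12 h later. ATRX, H3K9me3, G4 DNA (with the BG4 antibody) and chromatin accessibility (ATAC-seq) were each measured in 2 TERRA KD and 2 scramble KD libraries, which gives 16 peak lists. The study calls its ATRX and G4 replicates biological, and the labels do not say for any assay whether they were separate cultures, so a p-value here measures the spread between these libraries. The level of TERRA was not analysed here, so the knockdown was not checked in these libraries.

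ATRX is a chromatin remodeller of the SWI/SNF family that works with the histone chaperone DAXX to place the variant histone H3.3 at telomeres, pericentric repeats and other repeated sequence, and ATRX binds G-quadruplex DNA. Methyl groups on lysine 9 of histone H3 are written by SETDB1, which is brought to retroelements by TRIM28 (KAP1), by SUV39H1 and SUV39H2 at pericentric heterochromatin, and by the EHMT1 (GLP) and EHMT2 (G9a) complex, which writes mainly the mono- and dimethyl states. HP1 proteins, among them HP1alpha (Cbx5) and HP1beta (Cbx1), bind the methylated lysine. TERRA is transcribed from subtelomeric sequence into the telomere and holds UUAGGG repeats that can fold into G-quadruplexes, stacked squares of guanines. What was measured here is the chromatin at the genes of these proteins, not the amount or the binding of the proteins elsewhere.

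A few facts of the whole series bear on the values below. ChIP and ATAC libraries held between 2961038 and 24588605 tags after removal of duplicates, and the lists between 7321 ATRX peaks and 389434 G4 peaks. The G4 list of TERRA KD replicate 2 stood apart: 0% of its peaks had a false discovery rate of at most 5%, against at least 99.9% in the other G4 lists, and it had 225024 peaks but the lowest share of genes with a G4 peak at the TSS. The H3K9me3 lists of replicate 1 held peaks with a median length of 2404 bp (scramble KD) and 3119.5 bp (TERRA KD), and those of replicate 2 peaks of 491 bp and 515 bp. An ATAC peak lay within 1 kb of the TSS of 7 or 8 of 8 ES cell markers and of 4 to 6 of 8 fibroblast markers per library. Of all genes 59.4% to 64.2% had one. Nanog lacked it in scramble KD replicate 1, and Esrrb in replicate 2 of both conditions. Of the fibroblast markers, Col1a1, Col1a2, Twist1 and Thy1 had the peak in every list and Col3a1 and Postn in none. Prrx1 had it only in TERRA KD replicate 2, and Pdgfrb lacked it only in TERRA KD replicate 1.

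The sequences of the promoters are shown first, since G4 peaks are where the members differed most between lists. A G-quadruplex motif was taken as 4 runs of at least 3 G with loops of 1 to 7 bases on either strand, searched from 1 kb upstream to 1 kb downstream of the TSS (the most upstream curated start). Such a motif lay in the window of 5 of 10 members (Atrx, Trim28, Suv39h1, Suv39h2 and Ehmt2), against 54.9% of all genes and 68.5% of the genes with an ATAC peak at the TSS in all 4 lists. With loops of up to 12 bases, 10 of 10 members held a motif, against 70.6% of all genes. Of the other genes of the pathway, 28 of 40 held a motif with the shorter loops. The G runs are in capitals, each sequence is read 5' to 3' on the strand that holds the G runs, and the coordinates are those of GRCm38. Not all matches are printed.

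Atrx motif, chrX:105928585-105928606, minus strand: GGGGaGGGGGaGGGGcggcGGG
Atrx motif, chrX:105928642-105928666, minus strand: GGGGaaggaGGGGGGaGGGGGGGGG
Trim28 motif, chr7:13024791-13024813, plus strand: GGGtcGGGcgaGGGctcggcGGG
Suv39h1 motif, chrX:8074360-8074381, minus strand: GGGcGGGGctgaGGGGaGGGGG
Suv39h2 motif, chr2:3475121-3475140, plus strand: GGGGGcGGGaaGGGGcGGGG
Ehmt2 motif, chr17:34898679-34898707, plus strand: GGGGGcggatgaGGGGaccaGGGGGtGGG
Ehmt2 motif, chr17:34898905-34898927, plus strand: GGGaggaGGGGGcGGGGccGGGG
Ehmt2 motif, chr17:34898992-34899018, plus strand: GGGaGGGGGctgatgcGGGcccGGGGG

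The 2 Atrx motifs lie in intron 1, from 706 to 787 bp downstream of the TSS. The 3 Ehmt2 motifs printed lie between 205 and 544 bp downstream of the TSS on the strand of the gene, the last of them in a coding exon. The Suv39h1 motif starts 379 bp downstream of the TSS, and the Suv39h2 motif lies on the opposite strand, upstream of the TSS by 154 to 135 bp. GC content over the window ran from 50.4% (Cbx5) to 64.7% (Ehmt2) among the members, with a median of 55.8% against 50.9% over all genes.

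The 250 bases upstream of the TSS of 3 members are shown because Suv39h1 and Suv39h2 had a G4 peak at the TSS in both scramble KD lists and in neither TERRA KD list, and Cbx5 had none in any list. They are taken from RefSeq, GRCm38.p6, which held promoters of all 10 members, and are written in the direction of the gene with runs of at least 3 G in capitals.

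Suv39h1 upstream, chrX:8074761-8075010, minus strand: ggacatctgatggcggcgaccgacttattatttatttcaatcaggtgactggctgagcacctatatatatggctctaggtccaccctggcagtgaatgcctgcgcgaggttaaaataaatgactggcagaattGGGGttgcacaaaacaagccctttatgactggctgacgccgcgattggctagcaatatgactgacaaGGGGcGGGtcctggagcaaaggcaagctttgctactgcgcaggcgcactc
Suv39h2 upstream, chr2:3474987-3475236, minus strand: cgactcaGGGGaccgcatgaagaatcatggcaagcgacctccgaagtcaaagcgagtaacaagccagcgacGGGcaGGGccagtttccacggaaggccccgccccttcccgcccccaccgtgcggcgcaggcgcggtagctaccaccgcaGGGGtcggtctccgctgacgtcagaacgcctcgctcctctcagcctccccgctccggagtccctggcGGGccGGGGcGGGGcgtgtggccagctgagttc
Cbx5 upstream, chr15:103239853-103240102, minus strand: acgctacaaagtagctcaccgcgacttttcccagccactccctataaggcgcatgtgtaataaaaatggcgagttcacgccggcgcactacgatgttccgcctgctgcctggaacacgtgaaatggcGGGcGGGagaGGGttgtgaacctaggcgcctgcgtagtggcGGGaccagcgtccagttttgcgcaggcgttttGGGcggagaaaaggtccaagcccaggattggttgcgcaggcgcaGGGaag

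These stretches hold 3, 7 and 6 runs of at least 3 G and have a GC content of 51.6%, 69.6% and 59.2%. In this stretch Cbx5 thus held more G runs than Suv39h1, counted on the strand of the gene only. Both G4 peaks of Suv39h1 lay downstream of its TSS, outside the stretch, so these counts cannot tell whether G runs and G4 peaks go together. The telomeric letters TTAGGG, or CCCTAA on the other strand, occurred in the TSS windows of 2 of 10 members, Cbx5 and Ehmt2, against 55.3% of all genes.

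Chromatin at the members was accessible in both conditions. An ATAC peak lay within 1 kb of the TSS of 9 and 10 of 10 members in scramble KD replicates 1 and 2, against 59.4% and 63.5% of all genes. In TERRA KD replicates 1 and 2 it did so at 10 and 9 of 10 members, against 62.3% and 64.2%. The mean was 9.5 ± 0.71 (SD, n = 2) in each condition, a difference of 0 (two-sided exact permutation test, p = 1.0, where the smallest p that 2 against 2 libraries allow is 0.333). Leaving out 1 library moved the difference to between −0.5 and 0.5. All members but Ehmt2 had the peak in all 4 lists, which 57.1% of all genes did, and 36 of the 40 other pathway genes did.

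How strong a peak is can be compared only within its list. Its rank by p, counted from the smallest p, is therefore given as a percentage of the list's peaks, with tied peaks at their mean rank. The peak at the TSS of Daxx, the H3.3 chaperone, was the strongest among the members: it ranked in the top 2.36% and 0.952% of the scramble KD lists and in the top 1.62% of both TERRA KD lists. The start of BC051226 lies 267 bp upstream of the Daxx TSS, so the peak cannot be assigned to 1 of both genes. The same holds for Cbx5, where Hnrnpa1 starts 545 bp upstream and the peak ranked in the top 7.45%, 6.43%, 5.09% and 5.03% (here and below in the order scramble KD replicates 1 and 2, TERRA KD replicates 1 and 2).

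Trim28, the corepressor that recruits SETDB1, had TSS peaks in the top 5.13%, 7.37%, 6.91% and 6.97%. Suv39h1 followed with 11%, 7.69%, 8.91% and 4.2%, and Suv39h2 with 17.1%, 8.23%, 11.7% and 9.6%. These genes therefore had strong promoter peaks in each list, also in the TERRA KD lists where Suv39h1 and Suv39h2 had no G4 peak. The remodeller gene Atrx had TSS peaks in the top 16.3%, 17.0%, 14.5% and 9.72%. Setdb1 had them in the top 18.8%, 10.3%, 14.8% and 15.3%. Cbx1 and Ehmt1 were weaker, at 12.7% to 37.4% and at 26.8% to 39.4%. Ehmt2 was the exception: its only ATAC peaks within the window were at its far edge, with centres 1107 bp (scramble KD replicate 2) and 1032 bp (TERRA KD replicate 1) downstream of the TSS, ranked 81.1% and 89.7%.

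**Figure D1:**
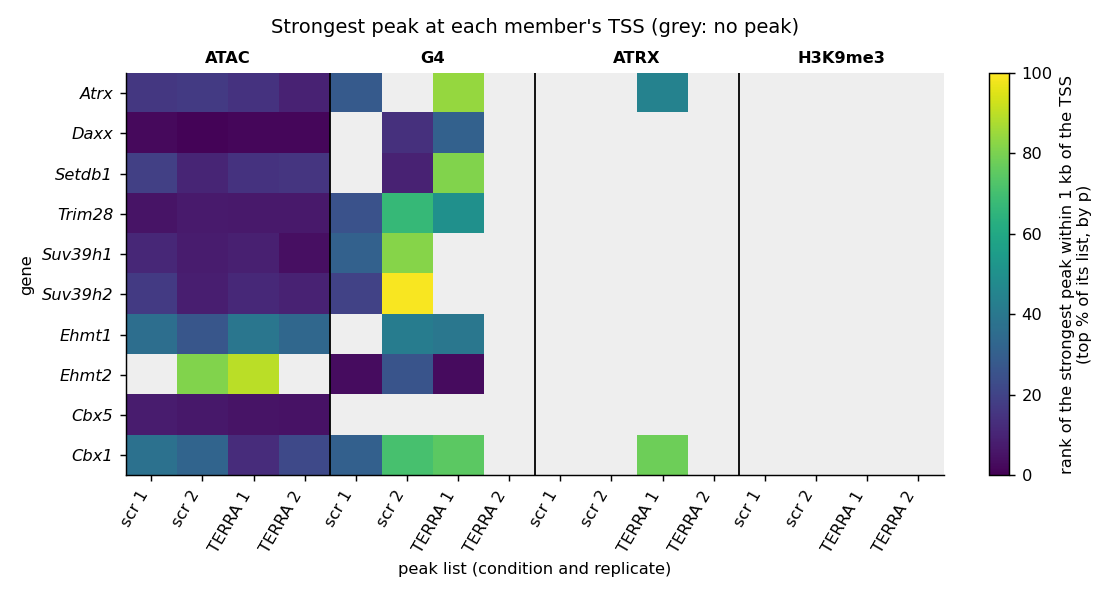
Rank of the strongest peak within 1 kb of the TSS for the 10 members (rows) in the 16 lists (columns, scr for scramble KD), as the top percent of the list by p, with grey for no peak. ATAC peaks stand at nearly every member in the ATAC columns, G4 peaks in 3 of the 4 G4 lists, ATRX peaks only at Atrx and Cbx1 in TERRA KD replicate 1, and no H3K9me3 peak at any member.

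Beyond the promoters, 13 accessible sites over the members were in all 4 ATAC lists. The highest ranked in 2 of the lists lay in Setdb1, the H3K9 methyltransferase of retroelements, 13.2 kb downstream of the TSS in intron 8, with ranks of 1.03%, 2.4%, 4.32% and 1.13%, ahead of the gene's own promoter in each list. Of the bases of that site 94.1% are soft-masked in the reference, the mark of repeated sequence, against 35.5% over the whole gene. Cbx5 had the highest ranked in the other 2 lists, 24.4 kb downstream, with ranks of 5.11%, 2.07%, 2.84% and 1.73%, which overlaps its second curated start at 24500 bp. Ehmt1 (7.1 kb) and Cbx1 (7.0 kb) had intron 1 sites in the top 5.66% to 11.4% and 7.36% to 18.1%, stronger than the Ehmt1 promoter in each list. Ehmt2, without an ATAC peak at its first start in 2 lists, had sites 4.5 kb and 13.3 kb downstream in all 4.

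Over the gene bodies, the scramble KD lists had 28 and 39 ATAC peaks in the members, and each TERRA KD list had 30. The difference was −3.5 (exact permutation p = 1.0). Without scramble KD replicate 2 it was 2.0 and without scramble KD replicate 1 it was −9.0, and with only peaks of a −log10 p of at least 5 it was 0.5. Per 100 kb of gene body the members had 6.61, 9.21, 7.08 and 7.08 ATAC peaks in the 4 lists, against 4.39, 5.32, 4.82 and 5.6 over all genes.

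G4 peaks at the members' TSS were found in 3 of 4 lists. In scramble KD replicate 1, Atrx, Trim28, Suv39h1, Suv39h2, Ehmt2 and Cbx1 had one, 6 of 10 against 41.2% of all genes. In scramble KD replicate 2 it was 8 of 10, against 64.1%, with Daxx, Setdb1 and Ehmt1 added and Atrx missing. TERRA KD replicate 1 had 7 of 10, against 48.5%, with all members but Suv39h1, Suv39h2 and Cbx5. In TERRA KD replicate 2 no member had one, against 22.1% of all genes.

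The mean was 7.0 ± 1.41 (SD, n = 2) in scramble KD and 3.5 ± 4.95 in TERRA KD. The difference of −3.5 did not pass the two-sided exact permutation test (p = 0.667), and the groups overlapped, since TERRA KD replicate 1 lay between both scramble KD values. Without TERRA KD replicate 2 the difference was 0, and without TERRA KD replicate 1 it was −7.0. Within replicate 1 it was 1.0 and within replicate 2 −8.0, so with all called peaks its direction turned with the replicate. With only peaks of a −log10 p of at least 5, the lists had 6, 4, 3 and 0 members with a G4 peak at the TSS. The groups then did not overlap, and the difference was again −3.5 (exact permutation p = 0.333). That cutoff kept 33.1%, 44.5%, 40.3% and 21.8% of the lists' peaks. The share of all genes was not computed for it.

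The members' shares moved between the lists as those of other accessible genes did. Among the 14950 genes with an ATAC peak at the TSS in all 4 lists, the share with a G4 peak there was 55.5%, 70.3%, 60.9% and 13.5% in the 4 lists. The other pathway genes showed 23, 27, 21 and 4 of 40. The low number in TERRA KD replicate 2 was thus shared by accessible genes in general, beside that library's false discovery rates given above, whose part in it was not tested.

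**Figure D2:**
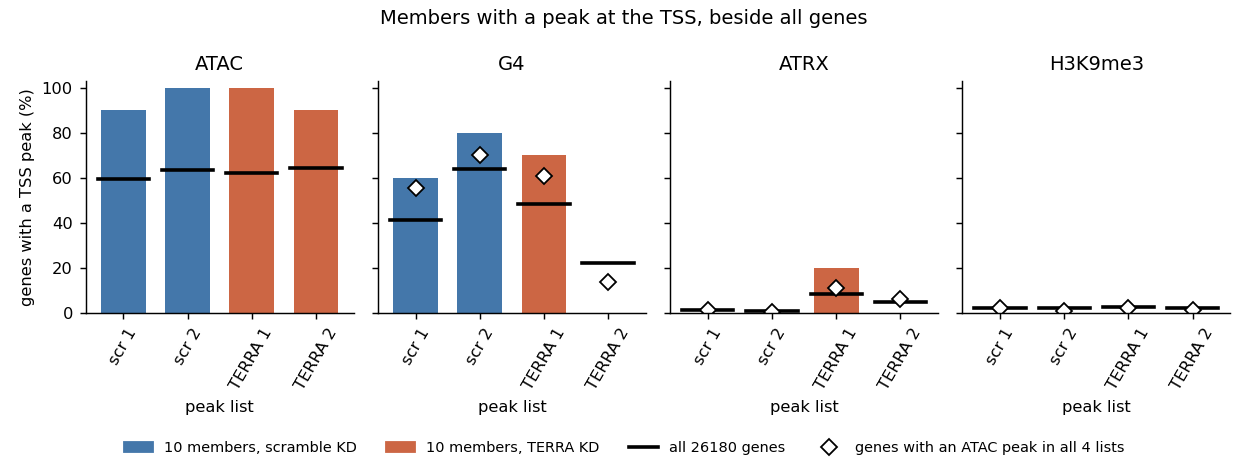
Share of the 10 members (bars, blue for scramble KD and orange for TERRA KD), of all 26180 genes (lines) and of the genes with an ATAC peak in all 4 lists (diamonds) that had a peak within 1 kb of the TSS, in percent, for each list. For G4 the bars stand at 60, 80, 70 and 0% and follow the lines and diamonds, and for H3K9me3 all bars are at 0.

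By member, Ehmt2, the G9a gene, had the strongest TSS peaks: they ranked in the top 3.38% of scramble KD replicate 1, 26.1% of scramble KD replicate 2 and 2.87% of TERRA KD replicate 1, with a −log10 p of 12.8, 7.77 and 14.8. All 3 motifs printed above lay under the first and last of these peaks, and 2 of them also under that of scramble KD replicate 2. The member with the weakest ATAC signal at the TSS therefore had the highest ranked G4 peaks in 2 of the 3 lists. In the third, Setdb1 ranked first (9.55%) and Daxx second (14.0%).

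Suv39h1 and Suv39h2, the paired pericentric methyltransferases, were the only members with a G4 peak in both scramble KD lists and in neither TERRA KD list. Of all genes 4.74% had that pattern, of the accessible genes 7.38%, and of the other pathway genes 8 of 40. At Suv39h1 the peaks ranked 31.2% and 81.8%, with 8 and 17 tags, and in TERRA KD the nearest G4 peak was 10790 and 10396 bp from the TSS. At Suv39h2 they ranked 19.9% and 99.1%, with 10 and 19 tags, and in TERRA KD the nearest was 15872 and 15669 bp away. Both peaks of scramble KD replicate 2 were thus near the end of their list, with a −log10 p of 2.66 and 2.03 against the calling threshold of 2, and the peak of scramble KD replicate 1 alone was among the stronger ones. The Suv39h1 motif lay under the peak of scramble KD replicate 1 and 9 bp outside that of replicate 2. The Suv39h2 motif lay under neither, 40 and 37 bp away, but under an ATAC peak in all 4 lists.

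Atrx itself had a G4 peak in replicate 1 of both conditions, ranked 28.2% in scramble KD, where it covered both motifs, and 84.1% in TERRA KD, where its nearer edge was 125 bp from them. Both lists of replicate 2 lacked it. Daxx, Setdb1 and Ehmt1 shared a different pattern, with a peak in scramble KD replicate 2 and TERRA KD replicate 1, and this pattern over the 16 lists was the same in 1167 other genes. Trim28, Ehmt2 and Cbx1 had a peak in all lists but TERRA KD replicate 2. Cbx5 had no G4 peak at the TSS in any list, as 25.1% of all genes, 14.8% of the accessible genes and 8 of 40 other pathway genes, although its ATAC peak there ranked in the top 7.45% or better.

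**Figure D3:**
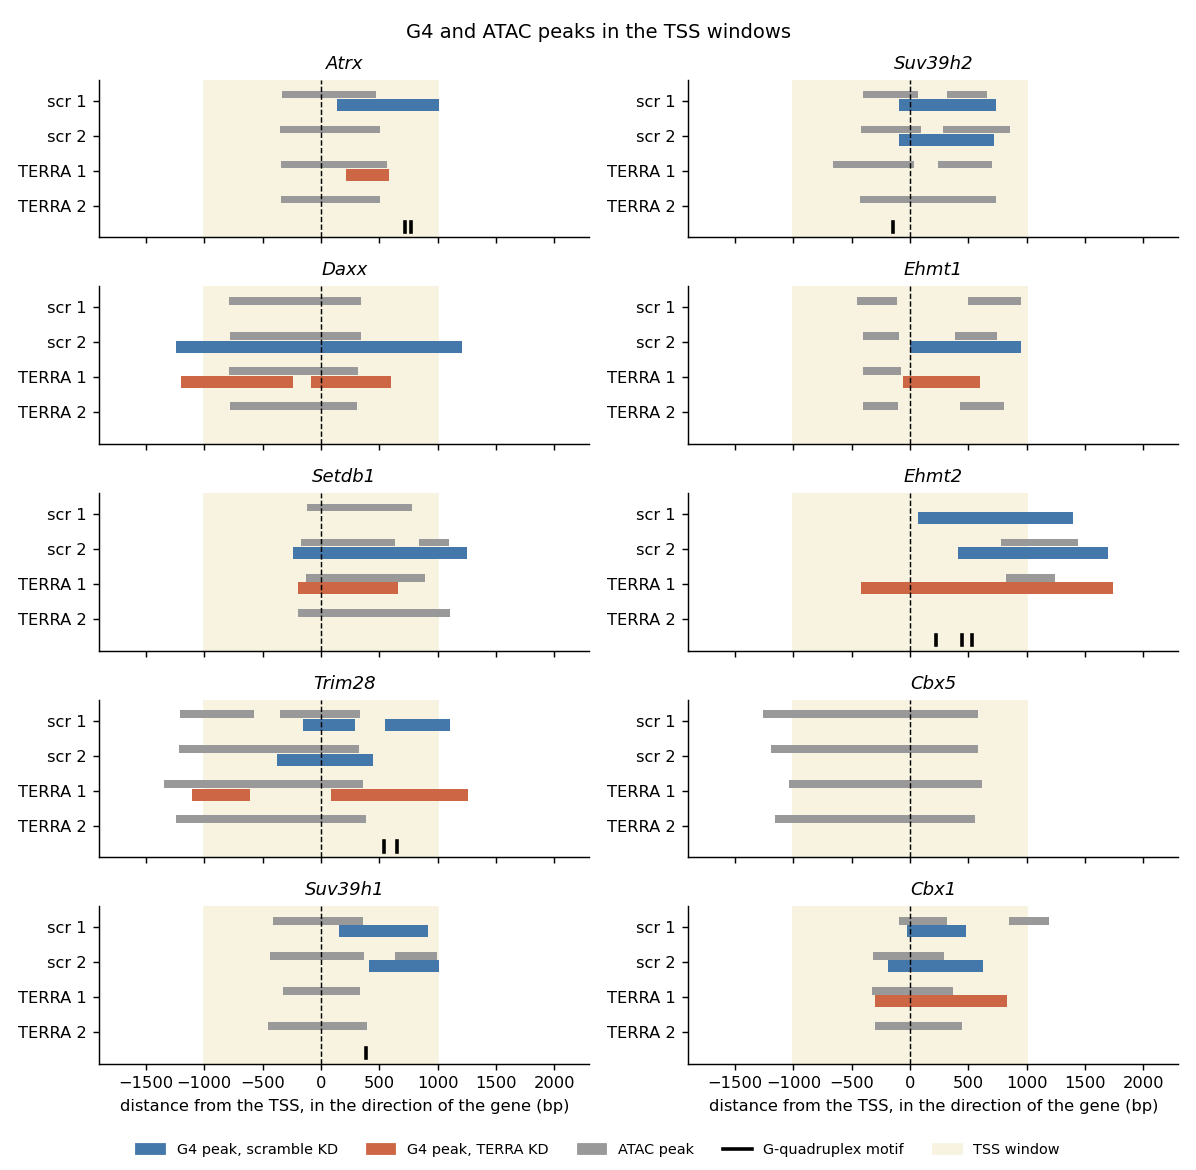
G4 peaks (blue for scramble KD, orange for TERRA KD), ATAC peaks (grey) and the G-quadruplex motifs reported (black ticks) by distance in bp from each member's TSS, in the direction of the gene, with 1 row per condition and replicate and the window of 1 kb on either side shaded. No G4 peak stands in the row of TERRA KD replicate 2, and at Suv39h1 and Suv39h2 blue bars stand in both scramble KD rows with none in the TERRA KD rows.

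Inside the genes the pattern was another one, since TERRA KD replicate 2 had G4 peaks there. The scramble KD lists had 21 and 49 G4 peaks in the members' gene bodies and the TERRA KD lists 23 and 25, a difference of −11.0 (exact permutation p = 1.0). With all called peaks it rested on scramble KD replicate 2, the list with 389434 peaks: without that list the difference was 3.0. Without scramble KD replicate 1 it was −25.0. Per 100 kb the members had 4.96, 11.6, 5.43 and 5.9 G4 peaks, below the 6.33, 19.1, 8.82 and 11 of all genes in each list. Ehmt1, a long gene of 128841 bp, held 4, 23, 8 and 12 of them, and Suv39h2 1, 1, 0 and 0. With only peaks of a −log10 p of at least 5, the members' gene bodies had 13, 21, 6 and 5 G4 peaks. Each scramble KD list was then above each TERRA KD list, with a difference of −11.5 (exact permutation p = 0.333). That cutoff kept 33.1%, 44.5%, 40.3% and 21.8% of the lists' peaks. The density over all genes was not computed for it, so whether the separation is particular to the members was not tested.

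When overlapping peaks of the 4 lists were merged, 58 G4 sites lay over the members, of which 5 were in all 4 lists and 22 in 1 list only. All of these 5 sites lay more than 1 kb from the TSS. In Ehmt2 the site 8.4 kb downstream spanned 4469 bp and was the strongest, with ranks of 4.2%, 0.765%, 0.437% and 7.19%. A second Ehmt2 site reached past the end of the gene, and Ehmt1 had one 26.7 kb downstream, with ranks of 7.72%, 61.9%, 9.85% and 9.1%. Atrx had 2, at 25.0 kb (18.0%, 31.8%, 44.4% and 12.6%) and at 118.1 kb (4.91%, 80.0%, 62.1% and 50.9%). These sites show that TERRA KD replicate 2 held G4 peaks inside members at places shared with the other lists, while the members' promoters had none in that list. In both scramble KD lists and neither TERRA KD list there were 2 sites, the promoters of Suv39h1 and Suv39h2, and the reverse was found at 0 sites.

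ATRX peaks near the TSS were few at the members, as they were over all genes. No member had one within 1 kb of the TSS in scramble KD replicates 1 and 2, where 1.07% and 0.588% of all genes did. In TERRA KD replicate 1 there were 2 of 10 (Atrx and Cbx1), against 8.22% of all genes, and in TERRA KD replicate 2 there were 0, against 4.83%. The difference in means was 1.0 (exact permutation p = 1.0) and was 0 without TERRA KD replicate 1 and 2.0 without TERRA KD replicate 2. No ATRX peak near a TSS was found in any list at 8 members, as at 86.4% of all genes and at 35 of the 40 other pathway genes. No member and no other pathway gene had the peak in both TERRA KD lists and neither scramble KD list, which 0.71% of all genes did.

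The ATRX peak at the Atrx TSS in TERRA KD replicate 1 was centred 243 bp downstream in the first exon. It held 6 tags, had a −log10 p of 2.44 and ranked 44.2%. The peak at Cbx1 was centred 666 bp downstream in intron 1, with 6 tags, a −log10 p of 2.17 and a rank of 78.0%. Each of these peaks had a false discovery rate of 100%. Both peaks shared bases with an ATAC and a G4 peak of the same condition and replicate number, which no other ATRX peak over the members did. At a −log10 p of at least 5, neither was left, and neither was among the 7321 strongest peaks of its list, the number in scramble KD replicate 1.

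Over the members' gene bodies the scramble KD lists had 1 and 0 ATRX peaks and the TERRA KD lists 6 and 4. The groups did not overlap, and the difference of 4.5 had the smallest p that the exact permutation test allows (p = 0.333). Per 100 kb of gene body the members had 0.236, 0.0, 1.42 and 0.945 ATRX peaks in the 4 lists, against 0.288, 0.481, 1.59 and 1.0 over all genes, whose density was also higher in TERRA KD, and the members were below all genes in each list. A gene body with an ATRX peak was found for 1 and 0 members in scramble KD, against 9.13% and 11.8% of all genes, and for 4 and 4 members in TERRA KD, against 31.6% and 23.6%, at a median gene length of 19340 bp in the members and 13451 bp over all genes. Taking as many of the strongest peaks from the longer list as the shorter one holds gave a difference of 0.

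These 11 peaks lay at 11 different sites, none found in more than 1 list, and fell in 5 genes: 5 in Atrx, 2 in Daxx, 2 in Cbx5, 1 in Ehmt1 and 1 in Cbx1. Setdb1, Trim28, Suv39h1, Suv39h2 and Ehmt2 had none. They had a −log10 p of 2.03 to 2.54 and 4 to 11 tags, so each was close to the calling threshold. Their false discovery rate was 95.74% or more in replicate 1 of either condition, and 3.62% to 3.74% in TERRA KD replicate 2. In Atrx, the scramble KD peak lay 2.2 kb downstream of the TSS in intron 1, and the peaks of TERRA KD replicate 1 lay 0.2, 3.1 and 39.9 kb downstream. The single peak of TERRA KD replicate 2 lay at 55.9 kb.

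**Figure D4:**
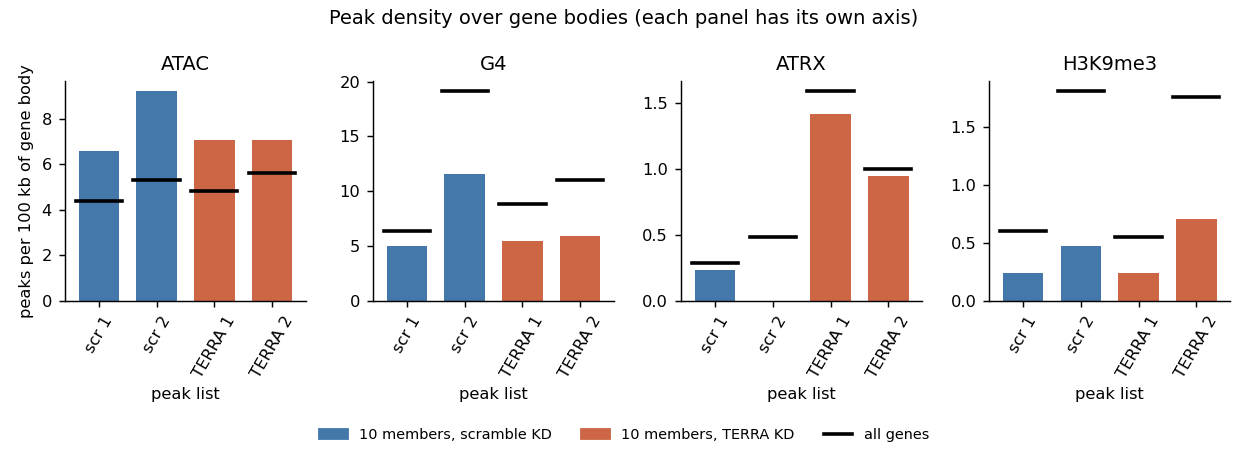
Peaks per 100 kb of gene body over the 10 members (bars, blue for scramble KD and orange for TERRA KD) and over all genes (lines) for each list, with a separate vertical axis per assay. The bars stand above the lines for ATAC and below them for G4, ATRX and H3K9me3 in each list, and the ATRX bars and lines are both higher in TERRA KD.

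H3K9me3, the mark that several of these proteins write and bind, was not listed at the members' promoters. No member had a peak within 1 kb of the TSS in any of the 4 lists, as 94.8% of all genes, where 2.28%, 1.96%, 2.35% and 2.07% of all genes had one in the 4 lists. At 3 kb the count was also 0 in each list. Among the other pathway genes, Atf7ip, which encodes a partner of SETDB1, had the peak in all 4 lists, and the counts were 2, 1, 1 and 1 of 40.

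Over the members' gene bodies the scramble KD lists had 1 and 2 H3K9me3 peaks and the TERRA KD lists 1 and 3. The difference was 0.5 (exact permutation p = 1.0), and it was −0.5 without TERRA KD replicate 2. It was 0 without scramble KD replicate 1, 1.0 without scramble KD replicate 2 and 1.5 without TERRA KD replicate 1. The members had 0.236, 0.472, 0.236 and 0.708 peaks per 100 kb, against 0.605, 1.81, 0.55 and 1.76 over all genes. A peak lay in 1 or 2 member genes per list, 1 and 2 in scramble KD against 13.9% and 21.3% of all genes, and 1 and 1 in TERRA KD against 13.2% and 21.2%.

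Atrx held 6 of these 7 peaks. Intron 1 of Atrx carried a broad domain: a peak of 5408 bp centred 6.0 kb downstream of the TSS in scramble KD replicate 1 (171 tags, −log10 p of 9.88) and a peak of 4968 bp centred 5.7 kb downstream in TERRA KD replicate 1 (151 tags, 10.4). TERRA KD replicate 2 had 2 short peaks within it, 5.8 and 7.0 kb downstream, with 6 and 8 tags. Scramble KD replicate 2 had none there. Thus 3 of 4 lists had a peak in the domain, and only the replicate 1 lists, whose H3K9me3 peaks were longer in general, called it as broad. Of the bases of the domain 61.3% are soft-masked in the reference, against 32.7% over the whole gene. An ATAC peak 6.1 kb downstream, present in all 4 ATAC lists with a −log10 p of 7.6 to 9.4, lay inside the domain, so the site was called both accessible and H3K9 trimethylated. The ATRX peak 3.1 kb downstream in TERRA KD replicate 1 touched the domain's promoter side, and no G4 peak of the same condition and replicate number overlapped it. The other H3K9me3 peaks were single short ones with 5 tags, in Atrx 66.6 kb (scramble KD replicate 2) and 87.7 kb downstream (TERRA KD replicate 2) and in Suv39h2 8.5 kb downstream (scramble KD replicate 2).

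**Figure D5:**
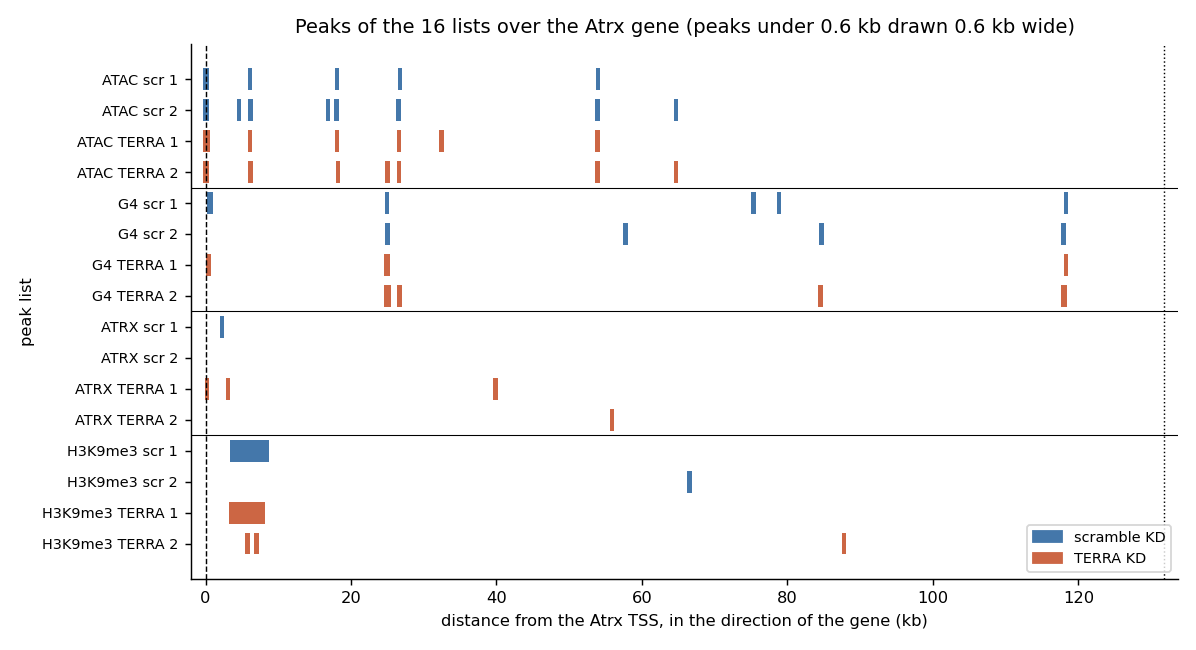
Peaks of the 16 lists over the Atrx gene by distance from its TSS in kb, 1 row per list, blue for scramble KD and orange for TERRA KD, with peaks under 0.6 kb drawn 0.6 kb wide and the dotted line at the end of the gene. The H3K9me3 bars 6.0 and 5.7 kb downstream are the widest, and the G4 sites at 25.0 and 118.1 kb stand in all 4 G4 rows.

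As a whole, the yes or no pattern over the 16 lists was shared by many genes for most members. Trim28 had 3535 other genes with the identical pattern, Cbx5 1820, Daxx, Setdb1 and Ehmt1 1167 each, Suv39h1 and Suv39h2 871, and Cbx1 404. Atrx had 60 and Ehmt2 15, which were the rarest patterns among the members. By the ranks of the strongest TSS peak in each list (0 where there is none), the genes most like Atrx over the 16 lists were Pcyt1a, Plcb4 and Tdg, with a mean absolute difference of 1.99, 2.4 and 2.61 rank percentiles. The members lie on 7 chromosomes, with Atrx (chromosome X, 105797615 to 105929372, minus strand) and Suv39h1 (chromosome X, 8061171 to 8074760, minus strand) on the X.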

How the data were processed

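The authors trimmed reads with Trim Galore 0.5.0, aligned them to GRCm38/mm10 with Bowtie2 2.3.4.1, removed duplicates and called peaks per library at a p of 0.01, with MACS 1.4.3 (ATRX, H3K9me3) or 1.4.2 (G4) against input and MACS 2.2.7.1 (ATAC) without input. Both G4 lists of a condition used the same input. The deposited lists give for ATRX, H3K9me3 and G4 the count of tags in each peak, a score (−10 times log10 of p), a fold enrichment over the local background and a false discovery rate in percent. The deposited ATAC lists hold the pileup signal, a fold enrichment and the −log10 of p. None is scaled between libraries, so peaks were ranked by p within their list, and a site without a peak is one where enrichment was not detectable at that depth.

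From these lists, peaks sharing at least 1 bp with the TSS plus or minus 1 kb, or with the gene body, were counted for 26180 genes (45756 curated RefSeq transcripts) with Python 3.11.15, pandas 2.3.3 and pysam 0.24.0, checked on simulated peaks and motifs. TERRA KD was compared with scramble KD by a two-sided exact permutation test over 4 libraries, whose smallest p is 0.333. The members, gene lists and settings were chosen with earlier results of these data known. All 10 members were named. Of the other pathway genes, those with an ATRX or H3K9me3 peak at the TSS in both replicates of a condition were named, and the 3 genes nearest to Atrx were named by rank percentiles. 1 of the G-quadruplex motif matches is not reported here. Input libraries were not analysed here other than through the calling of peaks.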

Additional observations from a re-analysis of the deposited data

How the results depend on the processing

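All values here are TERRA KD minus scramble KD. With 2 libraries per condition no comparison could pass a threshold of 0.05, and the ATRX peaks at the members are close to the calling threshold. Over 97 results of alternative settings, 72 kept their direction or stayed at 0, 17 moved to or from 0 and 7 reversed, the other being the motif count, and the cause was not tested. The 72 include the results with replicate numbers as a block, which cannot differ from the reported ones. They also include those for H3K9me3 at the TSS, where no list held a peak under any setting. Without a change of direction, 17 differed from the reported value by over 1.5 times, the motif count included. Leaving out a replicate number or a single library (the latter chosen after seeing the data) gave −1.0 to 1.0 for members with an ATAC peak at the TSS, −8.0 to 1.0 for G4, 0.0 to 2.0 for ATRX and 0.0 for H3K9me3. For peaks over the gene bodies it gave −9.0 to 2.0 (ATAC), −25.0 to 3.0 (G4), 3.5 to 5.5 (ATRX) and −0.5 to 1.5 (H3K9me3). With a −log10 p of at least 5, ATAC peaks over the gene bodies reversed to 0.5, and ATRX at the TSS, ATRX over the gene bodies and H3K9me3 over the gene bodies were at 0.0. At that cutoff G4 was at −3.5 at the TSS and at −11.5 over the gene bodies, each with an exact permutation p of 0.333. The values of all genes were not computed at that cutoff. With equal numbers of the strongest peaks per replicate number, ATRX at the TSS and over the gene bodies was at 0.0. G4 was at −2.5 at the TSS and over the gene bodies, and ATAC over the gene bodies was at −5.5. With a window of 3 kb, ATAC at the TSS was at −0.5 and ATRX at 0.5. ATAC over the gene bodies was at −2.0 by peak centres and at −1.5 without the first 1 kb. Loops of up to 12 bases put a motif in 10 members in place of 5.

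The labels do not say what libraries of the same replicate number share, and with 2 pairs the numbers were not taken to pair them. Taking the numbers as a replicate block leaves each difference unchanged by construction, so that for ATRX peaks over gene bodies is 4.5 either way. An exact sign-flip test over the 2 pairs, which can give no p below 0.5, gave p = 0.5 for it and p = 1.0 for the other 7 counts. The correlation of the deviations of same-numbered lists was taken over the genes with a TSS peak in at least 1 list of the assay. It was 0.09 for ATAC (17598 genes), 0.33 for G4 (19609), −0.02 for ATRX (3572) and 0.22 for H3K9me3 (1369).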
